A study of Macaca mulatta with 28 samples.

Results

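The genes described here encode 3 families of potassium channel that are known targets of ethanol, the BK, SK and GIRK channels. The members are the 9 listed genes, of which 8 are in the gene table of 15521 genes, namely KCNMA1, KCNMB2, KCNMB4, KCNN2, KCNN3, KCNJ3, KCNJ6 and KCNJ9, with 58 of the 156345 exons of the exon table. KCNN1, the remaining listed gene, was not analysed here. RNA was sequenced from a dissected block of tissue that held the central nucleus of the amygdala (CeA) in 28 male rhesus macaques, 1 library per animal, so that the replicates are animals. All 28 animals drank 4% (w/v) ethanol by choice for 22 hours a day on 7 days a week over more than 12 months, after an induction of about 90 days, and no animal without ethanol was among them. By the labels' drinking categories, 10 were low (LD), 5 binge (BD), 7 heavy (HD) and 6 very heavy (VHD). The BD category asks for a daily intake of 2 g/kg or more on 55% of days or more, with a blood ethanol of 80 mg/dl. The HD category asks for 3 g/kg or more on 20% of days or more. The VHD category asks for a mean intake over 3 g/kg and for days over 4 g/kg making up 10% or more of open access. LD animals met none of these. The 13 HD and VHD animals are called heavier drinkers here and the 15 LD and BD animals lighter drinkers. The animals came from cohort 4 (8 animals, on average 8.24 years old at induction and 9.98 at the end of open access), cohort 5 (7 animals, 5.63 and 7.15 years), cohort 7a (8 animals, 4.18 and 5.7 years) and cohort 7b (5 animals, 5.69 and 7.18 years).

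BK channels open on membrane depolarization and on a rise in intracellular calcium, and they shape the repolarization of the action potential and transmitter release. SK channels open on calcium alone, through calmodulin bound to the channel, and produce a slower afterhyperpolarization that limits repeated firing. GIRK channels are opened by the beta-gamma subunits of G proteins released from receptors such as the GABA-B, opioid and dopamine D2-type receptors, and they hold neurons near rest. Ethanol is known to act directly on GIRK channels and on BK channels, and the auxiliary beta subunits of BK channels change that response in cell models and in rodents.

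Depth ran between 1910514 and 25928489 reads per library (median 16444833), counted over genes, and the 3 shallowest, replicates 1 of LD, BD and HD, all came from cohort 4. Cohort 5 held heavier drinkers alone, so with cohort as a term it adds nothing to a heavier minus lighter difference. Heavier and lighter drinkers met in cohort 4 (1 against 7), cohort 7a (4 against 4) and cohort 7b (1 against 4), and VHD and LD animals met in cohort 7a alone (2 against 3). The values below are normalized reads, the reads of a gene scaled by 1 factor per library by the authors. GAD1 and GAD2, markers of GABAergic neurons such as those of the CeA, were high in every library but varied. GAD1 ran between 4184 and 10471 normalized reads and GAD2 between 2528 and 10535. CHAT, the acetylcholine-synthesizing enzyme of cholinergic neurons, ran between 0 and 1687 normalized reads, and TBR1, a transcription factor of cortical and basolateral glutamatergic neurons, between 0 and 694. The blocks thus differed widely in transcripts that mark neighbouring cell types. In such bulk tissue, fewer cells of a type and less RNA per cell cannot be told apart.

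In the coordinates of the exon table, whose genome build is not given in the sources used here, KCNMA1 spans chr10:56300585-57047379, KCNMB2 chr3:83518734-83813532 and KCNMB4 chr12:68573800-68639711. KCNN2 spans chr5:111680465-111711036 and KCNN3 chr1:128899061-129121185. KCNJ3 spans chr2b:41242655-41401267, KCNJ6 chr7:8779083-9086146 and KCNJ9 chr1:134369314-134377166. Levels can be compared between genes only per length. Per kilobase of listed exon, the median over 28 animals was 356 normalized reads for KCNJ3, 331 for KCNJ9, 331 for KCNMA1, 239 for KCNMB4, 210 for KCNJ6, 126 for KCNN2, 77.1 for KCNN3 and 47.4 for KCNMB2. The ranges of all neighbours in this order overlapped. KCNJ3 was above KCNJ9 in 15 of 28 animals, and in each of the other 6 neighbouring pairs the gene ahead was above the next in 19 to 23 of 28. The listed exons of KCNN2 cover 1058 bases and those of KCNN3 11959, of which 1 exon at an end of the gene takes 90.5%, so the order rests on how much of each transcript the table lists. Among the genes of the same families that are not members, the BK subunit gene LRRC55 had a median of 719 normalized reads, not scaled for length. KCNMB3 had a median of 74.9, KCNMB1 25.3, KCNJ5 (a GIRK subunit known best from the heart) 16.3 and KCNN4 (the intermediate-conductance channel of blood cells) 8.11.

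The first comparison asked whether the channel genes differ between animals that drank more and less. KCNMA1, the pore of the BK channel, lay between 1217 and 2363 normalized reads in LD animals, with a median of 2017. In BD animals it had 2357, 2332, 1728, 1776 and 1887. HD animals lay between 1821 and 2740 with a median of 2147, and VHD animals between 1107 and 2367 with a median of 1486. All 4 ranges overlapped, and HD held the highest single animal while VHD held the lowest. The means were 1926 ± 336 (SD, n = 10) in LD, 2016 ± 306 (n = 5) in BD animals, 2241 ± 346 (n = 7) in HD and 1603 ± 521 (n = 6) in VHD.

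**Figure D1:**
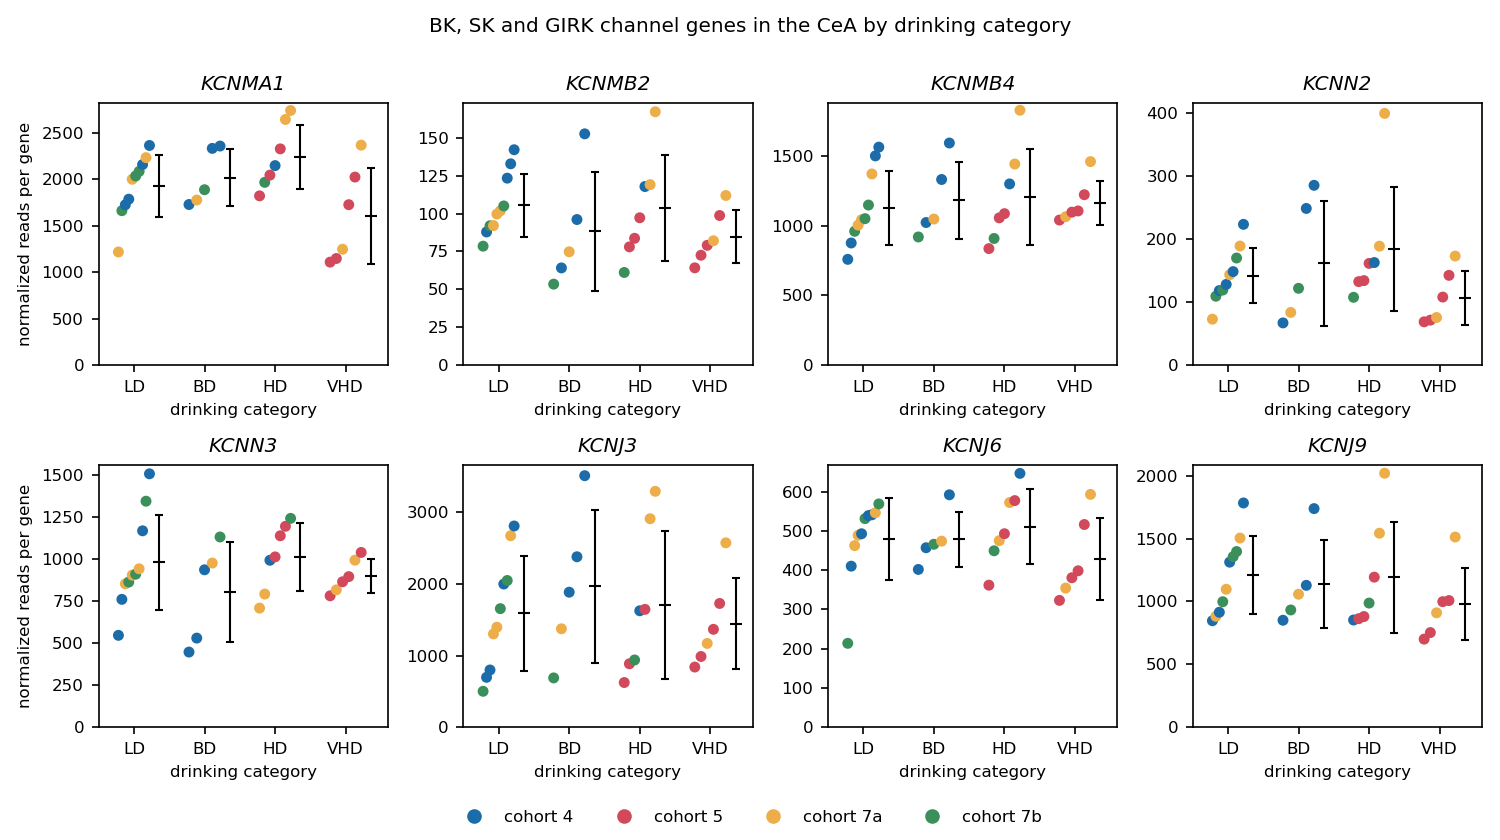
Normalized reads of each of the 8 channel genes (vertical axes, from 0) in every animal, by drinking category from LD to VHD, coloured by cohort; black bars give the mean and SD. The categories overlap in every panel, and for KCNMA1 3 VHD animals sit between 1107 and 1246 beside 1 LD animal at 1217.

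The auxiliary BK subunits both had a lower median per kilobase than the pore. KCNMB4, the beta 4 subunit typical of neurons, averaged 1127 ± 268 normalized reads in LD, 1182 ± 276 in BD animals, 1207 ± 345 in HD and 1164 ± 157 in VHD (SD). KCNMB2, the beta 2 subunit that gives BK currents an inactivating time course, averaged 106 ± 20.7 in LD, 88.2 ± 39.4 in BD animals, 104 ± 35.1 in HD and 84.8 ± 17.6 in VHD. For both genes the ranges of the 4 categories overlapped.

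Of the SK pores, KCNN2 (SK2) averaged 142 ± 43.2 normalized reads in LD, 161 ± 99.4 in BD animals, 184 ± 98.7 in HD and 106 ± 43.3 in VHD (SD). Its lowest, median and highest values were 72.8, 136 and 223 in LD, 107, 161 and 399 in HD and 68.5, 91.6 and 173 in VHD, and the 5 BD animals had 249, 285, 66.8, 83.4 and 122. KCNN3 (SK3) averaged 979 ± 284 in LD, 803 ± 299 in BD animals, 1011 ± 201 in HD and 898 ± 100 in VHD. KCNN2, like KCNMA1 and KCNJ6, had its highest mean in HD and its lowest in VHD, within overlapping ranges. VHD also had the lowest mean of KCNMB2, KCNJ3 and KCNJ9. The HD mean of KCNN2 holds 1 animal at 399, above the other HD animals at 107 to 189. Without that animal the heavier minus lighter log2 difference of KCNN2 was 0.080, with cohort as a term.

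The GIRK genes encode subunits that form mixed channels in the brain, KCNJ3 for GIRK1, KCNJ6 for GIRK2 and KCNJ9 for GIRK3. KCNJ3 averaged 1589 ± 802 normalized reads in LD, 1969 ± 1068 in BD animals, 1704 ± 1035 in HD and 1444 ± 635 in VHD (SD). Its lowest, median and highest values were 500, 1526 and 2811 in LD, 623, 1626 and 3296 in HD and 839, 1268 and 2576 in VHD, and the 5 BD animals had 2381, 3515, 1886, 1374 and 687. It was the most variable GIRK gene, spanning 500 to 3515 over all animals, a ratio of 7.02. KCNJ6 averaged 479 ± 105 in LD, 478 ± 69.7 in BD animals, 511 ± 95.1 in HD and 427 ± 104 in VHD. KCNJ9 averaged 1208 ± 310 in LD, 1141 ± 351 in BD animals, 1191 ± 442 in HD and 979 ± 290 in VHD. For each GIRK gene the ranges of all 4 categories overlapped.

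No member passed the test in any comparison of drinking groups. With limma on log2(value + 1) and cohort as a term, 0 of 13022 genes (0%) were called between heavier and lighter drinkers at an adjusted p under 0.05, 544 had an unadjusted p under 0.05 (4.18%), edgeR called 0 and DESeq2 called 1, which was no member. Heavier minus lighter drinkers, the log2 difference was 0.18 for KCNMA1 (95% interval -0.17 to 0.53), 0.13 for KCNMB2 (-0.25 to 0.51) and 0.19 for KCNMB4 (-0.11 to 0.49). It was 0.31 for KCNN2 (-0.34 to 0.95) and 0.054 for KCNN3 (-0.34 to 0.44). For the GIRK genes it was 0.23 for KCNJ3 (-0.48 to 0.95), 0.12 for KCNJ6 (-0.23 to 0.46) and 0.043 for KCNJ9 (-0.35 to 0.43). All 8 intervals held 0 and all 8 lay between 0.715-fold and 1.93-fold, so that 2-fold differences lie outside them. The 7 heavier drinkers of cohort 5 add nothing to these estimates. They rest on 1, 4 and 1 heavier animals of cohorts 4, 7a and 7b. All 8 estimates were above 0 with the cohort term, with a median of 0.16 against 2.4e-05 over all tested genes, but without the cohort term 6 of the 8 were below 0. In the same fit no cell type marker passed the adjusted threshold. Estimates were above 0 for 7 of 7 glutamatergic markers (median 0.54), and below 0 for 6 of 6 cholinergic (median -1.25) and 8 of 9 GABAergic markers (median -0.34). With 4 marker scores as covariates (GABAergic, glutamatergic, cholinergic and myelin), the heavier minus lighter difference was 0.0068 for KCNMA1, and it was below 0 for KCNMB2, KCNN2 and KCNJ9. Whether the marker scores account for the differences was not tested.

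Within cohort 7a, where 4 heavier met 4 lighter animals, KCNMA1 averaged 2249 normalized reads in heavier and 1806 in lighter drinkers. KCNN2 averaged 209 in heavier and 122 in lighter drinkers of that cohort, and KCNJ3 2489 in heavier and 1687 in lighter drinkers. KCNJ9 was higher in heavier drinkers there by 0.37 on the log2 scale. For KCNN3 the order was the other way round there, with 827 in heavier and 918 in lighter drinkers. The single heavier animal of cohort 4 had 2147 normalized reads of KCNMA1 against a mean of 2064 in 7 lighter animals, and that of cohort 7b 1966 against 1917 in 4. For KCNN2, KCNJ3 and KCNJ9 the single heavier animal was below the lighter mean in both cohorts. KCNN2 had 163 in the heavier animal against 174 in lighter animals of cohort 4, and 107 against 130 in cohort 7b. KCNJ3 had 1626 against 2012 and 938 against 1223, and KCNJ9 852 against 1224 and 986 against 1170, each pair given for cohort 4 and then for 7b. For these 3 genes the order of cohort 7a thus did not hold in cohorts 4 and 7b, except that KCNN2 in cohort 4 differed by 0.048 when log2 values were averaged. On the log2 scale KCNMB2 and KCNMB4 differed by 0.34 and 0.36 in cohort 7a and 0.10 and 0.13 in cohort 4. In cohort 7b they differed by -0.38 and -0.16. KCNN3 and KCNJ6 differed by -0.16 and -0.0085 in cohort 7a, 0.36 and 0.41 in cohort 4, and 0.25 and 0.11 in cohort 7b. The heavier animal of cohort 4, HD replicate 1, is among the 3 shallowest libraries.

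For VHD against LD, limma with cohort as a term again called 0 of 13022 genes (0%), with 1116 at an unadjusted p under 0.05 (8.57%), 0 by edgeR and 4 by DESeq2, none of them a member. VHD minus LD, the log2 difference was -0.15 for KCNMA1 (95% interval -0.57 to 0.27), -0.13 for KCNMB2 (-0.60 to 0.34) and 0.23 for KCNMB4 (-0.18 to 0.64). It was -0.19 for KCNN2 (-1.02 to 0.64) and -0.15 for KCNN3 (-0.66 to 0.36). It was 0.29 for KCNJ3 (-0.69 to 1.27), -0.059 for KCNJ6 (-0.52 to 0.40) and -0.12 for KCNJ9 (-0.65 to 0.41). The interval of KCNN2 reaches past 2-fold lower and that of KCNJ3 past 2-fold higher, and those of the other 6 genes lie within 2-fold either way. Of the 6 VHD animals, 2 lay above the LD mean for KCNMA1, KCNMB4, KCNN2, KCNN3, KCNJ3 and KCNJ6, and 1 for KCNMB2 and KCNJ9, and the ranges of VHD and LD overlapped for all 8 genes. In the same fit, estimates were above 0 for 8 of 8 myelin markers (median 0.44) and 5 of 6 cholinergic markers (median 0.81). The same held for 4 of 4 tested hypothalamus markers (median 2.06). They were below 0 for 6 of 9 GABAergic (median -0.53) and 7 of 7 striatal markers (median -0.32). No marker passed the adjusted threshold, and 3 myelin, 4 GABAergic and 2 striatal markers had an unadjusted p under 0.05 by limma. With marker scores as covariates the sign turned for KCNMB4, KCNN3 and KCNJ6.

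**Figure D2:**
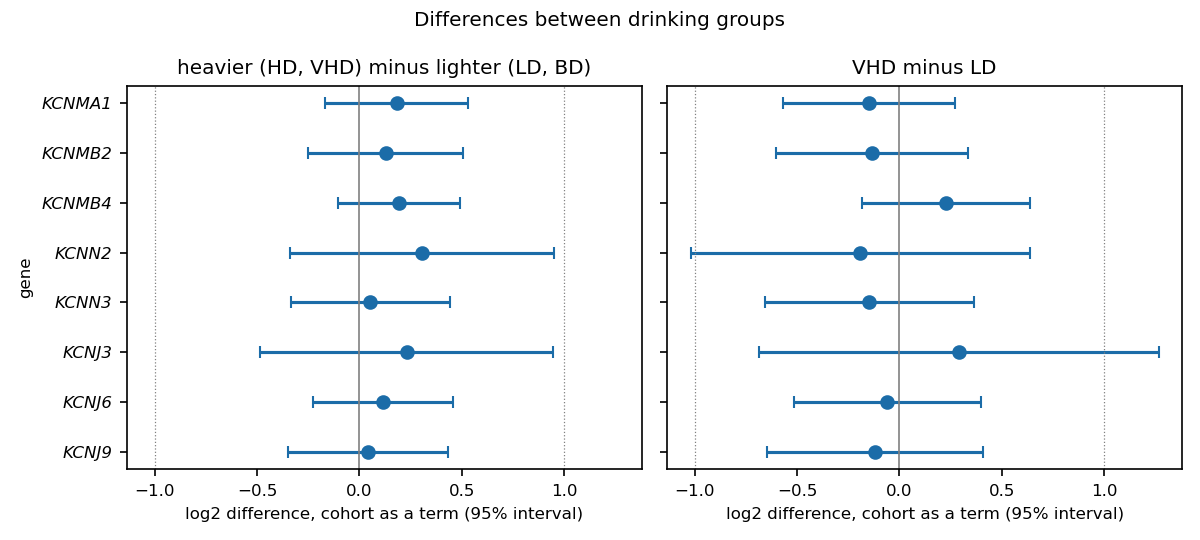
Log2 differences with 95% intervals for the 8 channel genes, heavier minus lighter drinkers (left) and VHD minus LD (right), with cohort as a term; dotted lines mark 2-fold. Every interval holds 0, and those of KCNN2 and KCNJ3 are the widest in both panels.

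Over all 4 categories the F test of limma called 0 of 13022 genes (0%), with 1208 at an unadjusted p under 0.05 (9.28%), while edgeR called 0 and DESeq2 36, none of them a member. KCNMA1 had the smallest value of the members, with an unadjusted p of 0.0459 and an adjusted p of 0.530 by limma. The 4 animals lowest in KCNMA1, VHD replicates 4, 3 and 5 and LD replicate 7, had 1107, 1146, 1246 and 1217 normalized reads, below the next animal at 1661. The same 4 animals had the highest CHAT, with 1566, 1687, 1450 and 826 normalized reads, against 0 to 606 in the other 24. Over the 6 cholinergic markers, the summed level ran from 325 to 9678 normalized reads in LD, 138 to 6296 in BD animals, 83.0 to 1881 in HD and 189 to 21121 in VHD. With the same 4 marker scores as covariates, the VHD minus LD difference of KCNMA1 was -0.018 on the log2 scale (95% interval -0.29 to 0.25), and its limma F test over categories had an unadjusted p of 0.875. The cholinergic score among these covariates has r of -0.86 with KCNMA1 in the same 28 animals, so this fit cannot separate drinking from tissue content. Why KCNMA1 was lower in those animals was not tested. Leaving out VHD replicate 5 gave a VHD minus LD difference of 0.039, and leaving out VHD replicate 6 gave -0.35. VHD replicate 5 also had by far the highest hypothalamus marker score, 5.52, followed by 1.38 in LD replicate 7. Summed over 5 hypothalamus markers, VHD animals reached 26433 normalized reads (median 45.6). The highest sums were 157 in LD, 87.9 in BD and 87.1 in HD animals. Whether this bears on the channel genes was not tested.

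The second comparison concerned cohorts, which differ in mean age. No member was called there either. The limma F test over 4 cohorts, with category as a term, called 0 of 13022 genes (0%), with 1225 at an unadjusted p under 0.05 (9.41%), and edgeR called 0 and DESeq2 24. DESeq2 gave no adjusted p for KCNMB2 there and called none of the other 7 members. Cohort 4 against 7a gave 0 of 13022 (0%), with 1223 at an unadjusted p under 0.05 (9.39%), 0 by edgeR and 12 by DESeq2. KCNMB2 averaged 115 ± 29.9 normalized reads in cohort 4, 81.9 ± 12.6 in cohort 5, 106 ± 28.7 in cohort 7a and 78.0 ± 21.3 in cohort 7b (SD), with an unadjusted p of 0.0106 and an adjusted p of 0.409 by limma. KCNJ3 averaged 1964 ± 955 in cohort 4, 1153 ± 428 in cohort 5, 2088 ± 860 in cohort 7a and 1166 ± 660 in cohort 7b, with an unadjusted p of 0.0451 and an adjusted p of 0.520. The ranges of the cohorts overlapped for both genes. The glutamatergic marker score, like KCNJ3, was higher in cohorts 4 and 7a than in cohorts 5 and 7b, at 0.58 in cohort 4, -0.70 in cohort 5, 0.73 in cohort 7a and -1.12 in cohort 7b. That score is the mean log2 value of 7 markers, each centred on its mean over 28 animals. With the 4 marker scores as covariates the unadjusted p of the limma F test was 0.278 for KCNMB2 and 0.0641 for KCNJ3. What lies behind the cohort values was not tested.

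KCNMA1 averaged 2074 ± 285 normalized reads in cohort 4, 1742 ± 461 in cohort 5, 2028 ± 582 in cohort 7a and 1927 ± 166 in cohort 7b. KCNMB4 averaged 1243 ± 321, 1063 ± 116, 1282 ± 293 and 997 ± 101 in the cohorts taken in the same order, and KCNN2 173 ± 73.6, 117 ± 35.7, 166 ± 107 and 125 ± 25.6. KCNN3 averaged 860 ± 363, 989 ± 150, 872 ± 98.6 and 1097 ± 208, so its higher means fell in the 2 cohorts where KCNJ3 was lower. KCNJ6 averaged 510 ± 86.1, 436 ± 93.4, 496 ± 75.5 and 446 ± 139, and KCNJ9 1178 ± 395, 913 ± 168, 1315 ± 394 and 1133 ± 223. The unadjusted limma p of these 6 genes over cohorts was 0.0963 or more.

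Several of the members varied together across animals, as did many other genes. Of the 28 pairs of members, 20 (71.4%) were correlated over 28 animals at a permutation p adjusted over the pairs under 0.05, and 15 when each value was centred on its cohort's mean. The smallest absolute r among the 20 was 0.40, and 24.9% of all pairs of 11249 genes with a mean of at least 50 normalized reads reached it. Whether the members differ in this from other genes was not tested. KCNMB4 and KCNJ3 had Pearson's r of 0.82 and Spearman's rho of 0.81 (both permutation p = 1e-05, the smallest that 100000 resamples can give, adjusted 7e-05 for r). The r was 0.78 without the 2 animals farthest from the median of KCNMB4, and 0.90, 0.60 and 0.95 within cohorts 4, 5 and 7a. KCNMA1 and KCNN2 had r of 0.80 and rho of 0.78 (permutation p = 1e-05, adjusted 7e-05). Without the 2 farthest animals r was 0.76, and it was 0.51, 0.99 and 0.90 within the same cohorts. Cohort 7b, with 5 animals, is too small for a value of its own.

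Over all 28 animals KCNN3 had a negative r with each of the other 7 members, past the threshold for 4 of them, KCNMB4, KCNN2, KCNJ3 and KCNJ9. Within cohort 5 its r was above 0 with KCNN2 (0.77), KCNJ9 (0.32), KCNMA1 (0.72), KCNMB2 (0.50) and KCNJ6 (0.045), and within cohort 4 with KCNJ6 (0.79). For KCNJ9 the adjusted permutation p of rho was 0.0763. Its r with KCNJ3 was -0.79 and rho -0.79 (permutation p = 1e-05 and 2e-05, adjusted 7e-05 for r), and r stayed at -0.78 without the 2 farthest animals. Within cohorts 4, 5 and 7a it was -0.94, -0.30 and -0.80. With KCNMB4 its r was -0.75 and rho -0.70 (permutation p = 1e-05 and 3e-05, adjusted 7e-05 for r), -0.72 without the 2 farthest animals, and -0.84, -0.54 and -0.84 within those cohorts. KCNJ6 had the weakest relations, with 1 of its 7 pairs past the threshold. That pair, with KCNJ3, had r of 0.46 and rho of 0.39 over 28 animals (permutation p = 0.0128 and 0.0425, adjusted 0.0224 for r and 0.0567 for rho). It had r of 0.21 without the 2 animals farthest from the median of KCNJ3, and -0.61, 0.61 and 0.70 within cohorts 4, 5 and 7a. The relation was thus weaker without those 2 animals and did not hold in cohort 4.

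The members also varied with the markers of cell types. Of 96 pairs of a member and a marker score, 66 (68.8%) had an adjusted permutation p under 0.05, and 61 after centring on cohort means. The smallest absolute r among the 66 was 0.41, and 33.0% of all pairs of a score and 1 of 11249 genes reached it, leaving out each score's own markers. KCNJ3 followed the glutamatergic score most closely, with r of 0.95 and rho of 0.95 over 28 animals (permutation p = 1e-05, the smallest possible, adjusted 5.65e-05 for r). The r was 0.93 with the 2 animals of most extreme score left out, and 0.96, 0.89 and 0.96 within cohorts 4, 5 and 7a. KCNMB4 had r of 0.85 with that score (0.96, 0.56 and 0.91 within those cohorts) and -0.88 with the GABAergic score (-0.92, -0.29 and -0.99). Its rho was 0.88 and -0.75, and the adjusted permutation p of r was 5.65e-05 for both. Without the 2 farthest animals the values of r were 0.83 and -0.83.

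**Figure D3:**
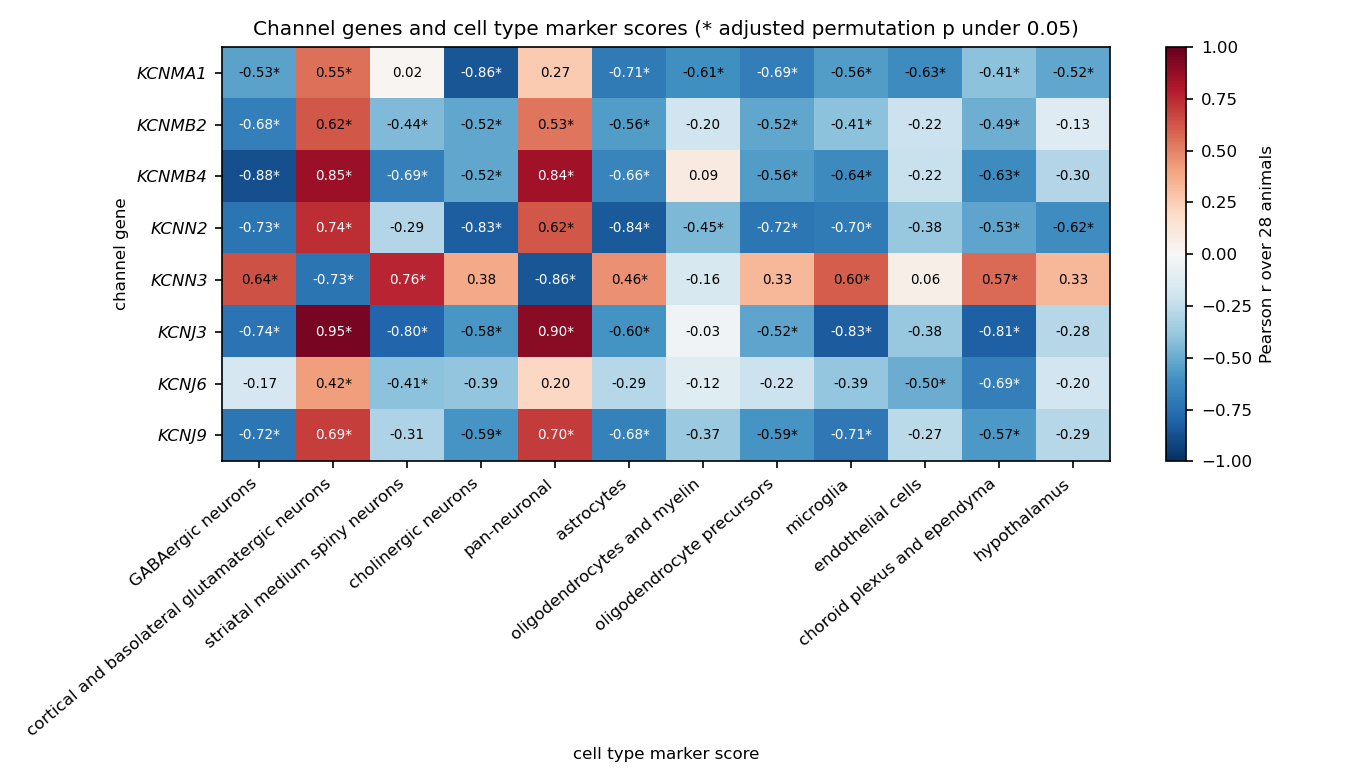
Pearson's r over 28 animals between each channel gene (rows) and each cell type marker score (columns), with an asterisk where the permutation p adjusted over 96 pairs is under 0.05. KCNN3 has the opposite sign to the other 7 genes for every score except the striatal and the oligodendrocyte and myelin scores. Among these, its values for the cholinergic, oligodendrocyte precursor, endothelial and hypothalamus scores carry no asterisk.

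KCNN3 had r of -0.86 and rho of -0.85 with the pan-neuronal score (permutation p = 1e-05, adjusted 5.65e-05 for r), and r was -0.84 without the 2 farthest animals and -0.93, -0.71 and -0.86 within cohorts 4, 5 and 7a. With the score of striatal medium spiny neurons its r was 0.76 and rho 0.85 (permutation p = 1e-05, adjusted 5.65e-05 for r), and r was 0.75 without the 2 farthest animals and 0.87, 0.91 and 0.67 within those cohorts. KCNN3 was thus higher in blocks with more striatal and fewer pan-neuronal marker transcripts. For KCNJ3 the signs were the other way round, with r of -0.80 for the striatal score (rho -0.76, -0.73 without the 2 farthest animals, and -0.93, -0.38 and -0.66 within cohorts). For the pan-neuronal score its r was 0.90 (rho 0.90, 0.88 without the 2 farthest animals, and 0.88, 0.78 and 0.92 within cohorts), and both had an adjusted permutation p of 5.65e-05. Which cells hold the transcripts was not tested.

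KCNMA1 and KCNN2 were lower where cholinergic markers were higher. KCNMA1 had r of -0.86 and rho of -0.81 with the cholinergic score (permutation p = 1e-05, adjusted 5.65e-05 for r), -0.82 without the 2 farthest animals, and -0.45, -0.96 and -0.94 within cohorts 4, 5 and 7a. The 4 animals lowest in KCNMA1 lie beyond the rest in both measures, and over the other 24, a split chosen after the data were seen, r was -0.76 and rho -0.70 (unadjusted permutation p of r = 3e-05). The split was made on KCNMA1 itself, so this p is a description and no separate support. KCNN2 had r of -0.83 and rho of -0.80 with the same score (permutation p = 1e-05, adjusted 5.65e-05 for r), -0.79 without the 2 farthest animals, and -0.64, -0.95 and -0.90 within those cohorts. KCNN2 also had r of -0.84 and rho of -0.82 with the astrocyte score (permutation p = 1e-05, adjusted 5.65e-05 for r), -0.76 without the 2 farthest animals, and -0.88, -0.63 and -0.88 within cohorts.

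**Figure D4:**
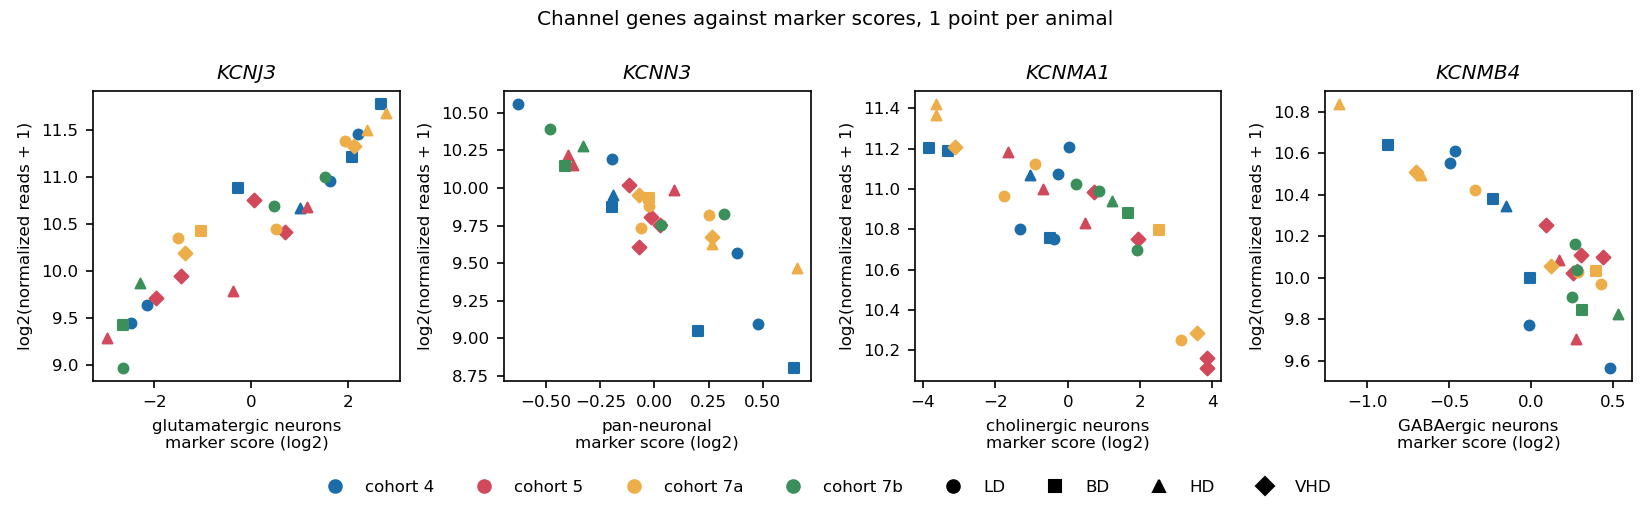
Log2(normalized reads + 1) of 4 channel genes (vertical axes) against the marker score each follows (horizontal axes, log2), 1 point per animal, coloured by cohort and shaped by drinking category. KCNJ3 climbs with the glutamatergic score, and in the KCNMA1 panel 3 VHD animals and 1 LD animal lie apart at scores above 3.

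KCNJ9 had r of 0.69 and rho of 0.66 with the glutamatergic score (adjusted permutation p of r = 0.00024), 0.68 without the 2 farthest animals, and 0.61, 0.77 and 0.96 within cohorts 4, 5 and 7a. For KCNMB2 r was 0.62 and rho 0.64 (adjusted permutation p of r = 0.00096), 0.56 without the 2 farthest animals, and 0.21, 0.50 and 0.70 within those cohorts. KCNJ6 had r of 0.42 and rho of 0.36 with the glutamatergic score (adjusted permutation p = 0.0372 for r and 0.0811 for rho), and 0.39 without the 2 farthest animals. Its r was -0.59, 0.66 and 0.71 within those cohorts, so the relation does not hold in cohort 4. Its largest r was -0.69, with the score of choroid plexus and ependyma (rho -0.61, permutation p = 6e-05, adjusted 0.000222 for r). That value was -0.49 without the 2 farthest animals, and 0.45, -0.78 and -0.84 within cohorts 4, 5 and 7a, so it does not hold in cohort 4.

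Among 11249 genes with a mean of at least 50 normalized reads, those most like each member over the 28 libraries were ranked by Pearson's r on the log2 scale, as a description. The nearest to KCNMA1 were CAMK2A (r = 0.90), the alpha subunit of the synaptic calcium/calmodulin kinase, CNKSR2 (0.90) and GABRA2 (0.90), a GABA-A receptor subunit. Those of KCNMB4 were TCF4 (0.94), SYNDIG1 (0.93) and PDZRN3 (0.92), and those of KCNMB2 were NDST3 (0.81), PTPN4 (0.77) and TOPBP1 (0.76). KCNN2 ran closest with RSPO2 (0.95), STXBP5L (0.93) and EFR3A (0.93), and KCNN3 with NHSL2 (0.89), AFF4 (0.88) and ZNF609 (0.88). KCNJ3 ran closest with PIRT (0.97), CREG2 (0.96) and CLMP (0.96), and KCNJ9 with RNF112 (0.95), BAP1 (0.93) and CDC42SE2 (0.93). For KCNJ6 the nearest genes reached 0.74 (IKBKAP), 0.73 (UBR1) and 0.72 (LPHN2), the lowest values among the members.

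No gene of the partner lists passed the limma test between heavier and lighter drinkers or over cohorts. Heavier minus lighter drinkers, among 8 genes of the SK complex (calmodulins, casein kinase 2 and protein phosphatase 2A), 4 estimates were above 0 and 4 below, and the smallest unadjusted p was that of CSNK2A1 (log2 0.062, p = 0.326), then CSNK2A2 (0.068, p = 0.544). Among 14 GIRK partners (G protein subunits, RGS proteins and the sorting nexin SNX27), 9 were above 0 and 5 below, led by the G protein subunit GNAI2 (log2 -0.14, unadjusted p = 0.107) and RGS6 (0.44, p = 0.139). Over cohorts, RGS7 and SNX27 had unadjusted p of 0.0168 and 0.0261, both with an adjusted p of 0.432 or more. Of 17 Gi-coupled receptors, 9 estimates were above 0 and 8 below, and none had an unadjusted p under 0.05 between drinkers. The smallest were DRD2, the dopamine D2 receptor (log2 -0.82, p = 0.135), and OPRL1, the nociceptin receptor (-0.15, p = 0.250). Over cohorts the GABA-B receptor subunit GABBR1 and DRD2 had unadjusted p of 0.00626 and 0.00666, with adjusted p of 0.394 and 0.395 by limma.

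Of the 4 calcium sources in the tested table, CACNA1A, the P/Q-type channel pore, had log2 0.21 (unadjusted p = 0.0849), and CACNA1G, a T-type pore, 0.26 (p = 0.325), heavier minus lighter. CACNA1G reached an unadjusted p of 0.0174 over cohorts. Of 22 other neuronal potassium channel genes, 12 estimates were above 0 and 10 below, led by KCNH7 (log2 0.30, unadjusted p = 0.128) and KCNA2 (0.15, p = 0.151). Over cohorts KCNH7 and KCND3 had unadjusted p of 0.00593 and 0.0313, with adjusted p of 0.394 and 0.493 by limma. Outside the members, the BK, SK and GIRK families held KCNMB3 (log2 0.22, unadjusted p = 0.155) and KCNN4 (-1.22, p = 0.0704) as the smallest p between drinkers. LRRC55, which encodes a BK gamma subunit, was picked out after its values were seen, since HD and VHD animals did not overlap in it. The share of all genes without such overlap was not counted, so how unusual this is cannot be said. It had 405 to 1005 normalized reads in LD, 484 to 901 in BD animals, 509 to 722 in HD and 758 to 1017 in VHD. VHD minus LD, its log2 difference was 0.51 (95% interval 0.074 to 0.95), with an unadjusted p of 0.0238 and an adjusted p of 0.559 by limma, and over all 4 categories the adjusted p was 0.485. The same VHD values had led to the choice of LRRC55, so this test gives it no separate support. In that comparison 8.57% of 13022 genes had an unadjusted p under 0.05 by limma. KCNJ5, KCNMB1 and KCNN4 had medians of 25.3 normalized reads or less, and 3 reads in the shallowest library are worth 24.1.

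Relative exon use asks whether a gene's exons keep their proportions. With limma's diffSplice F test, 9 of 9817 genes (0.0917%) were called between heavier and lighter drinkers, 17 (0.173%) for VHD against LD and 12 (0.122%) for cohort 4 against 7a, and no member was among them, with an adjusted p of 1 for each. At an unadjusted p under 0.05 the shares were 1.73%, 1.55% and 2.94% of genes, again with no member. A test that gives each exon its own spread, chosen after the data were seen, called 0 of 109212 exons in all 3 comparisons. By that test 4059 of 109212 exons had an unadjusted p under 0.05 between heavier and lighter drinkers.

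KCNMA1 is the member with most exons in the table, 27, numbered here by rising position, since the table gives no strand. The exons carried unequal shares of the reads of KCNMA1. Exon 1, of 2627 bases, held a median of 10.5% of the reads but only 0.151 times the per-base level typical of the gene's exons, and exon 27, at the other end, 0.129 times. Exons 26 and 22 held 0.455 and 0.497 times that level. The 5 exons whose relative use varied most between animals were exons 9, 19, 11, 16 and 4, with an SD of 0.67, 0.64, 0.63, 0.54 and 0.52 on the log2 scale.

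Exon 19 (92 bases, chr10:56520651-56520742) fell into 2 separate ranges of share. In 20 animals it took 1.14% to 2.09% of the gene's exon reads (mean 1.62 ± 0.27%, SD), and in the other 8 it took 3.56% to 4.98% (mean 4.13 ± 0.56%). The ratio across the gap was 1.70, the largest of the 46 exons of members examined, and 0.614% of the 85517 exons with a mean of at least 20 normalized reads had a gap of that size or more. The higher range held 6 of 13 heavier and 2 of 15 lighter drinkers, made up of 1 LD, 1 BD, 4 HD and 2 VHD animals, and 1 animal of cohort 4, 2 of cohort 5, 4 of cohort 7a and 1 of cohort 7b. In the exon-level fit over all exons, heavier minus lighter drinkers, its relative use differed by 0.70 on the log2 scale with an unadjusted p of 0.00936 by limma's diffSplice and an adjusted p of 1. With an own spread per exon the difference was 0.67 (95% interval 0.093 to 1.25), with an unadjusted p of 0.0245 and an adjusted p of 1 by limma. The ranges were noticed in the data, and the split itself was not tested.

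**Figure D5:**
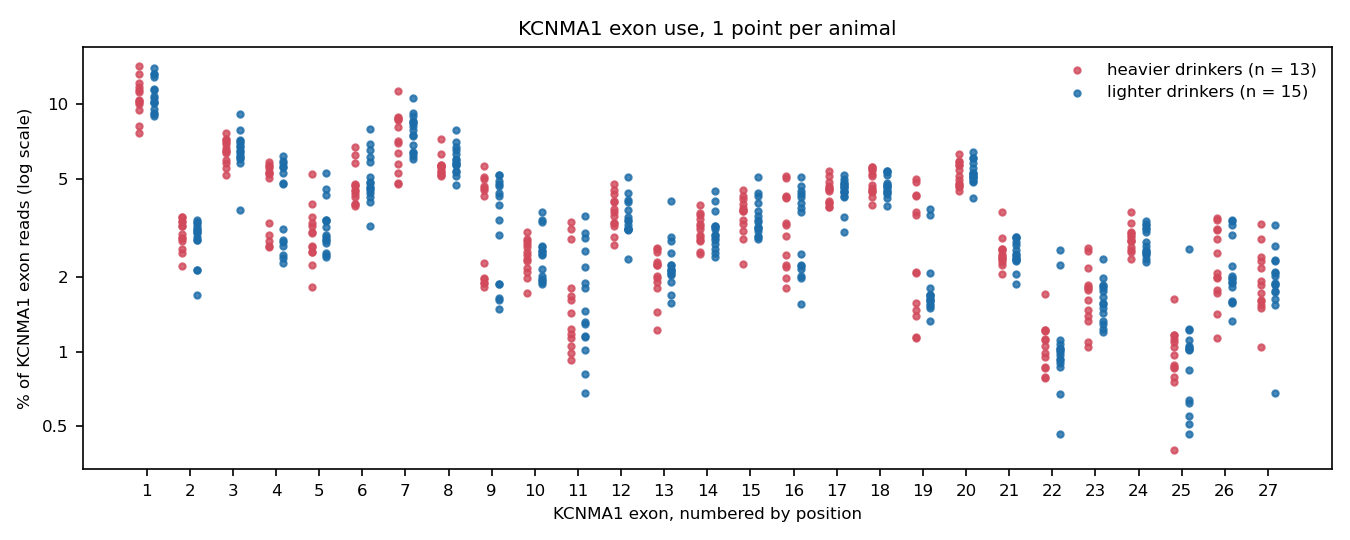
Share of the KCNMA1 exon reads (log axis, %) taken by each of 27 exons numbered by rising position, 1 point per animal, heavier drinkers to the left of lighter drinkers. Exons 4, 9 and 19 split into separate bands, and exon 19 has 8 animals at 3.56% or more and 20 at 2.09% or less.

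Exon 4 (131 bases, chr10:56324022-56324152) took 2.28% to 3.30% in 12 animals and 4.76% to 6.19% in 16. The higher range held 8 of 13 heavier and 8 of 15 lighter drinkers. Its gap had a ratio of 1.44, a size that 1.34% of exons reach. Exon 9 (94 bases, chr10:56383939-56384032) took 1.48% to 2.28% in 11 animals and 2.96% to 5.65% in 17. Its higher range held 7 of 13 heavier and 10 of 15 lighter drinkers, and its gap of 1.30 is reached by 2.42% of exons. The bands of exons 4, 9 and 19 did not pick out the same animals. Of the 8 animals high in exon 19, 2 were high in exon 4 and 2 in exon 9, and 12 animals were high in both exons 4 and 9. These shares rest on few reads, since exon 19 had 20 to 116 normalized reads per animal with a median of 33.5, and the shallowest library held 294 reads of KCNMA1 in all.

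Among the exons of the other members with that mean, the largest gap had a ratio of 1.16, in exon 6 of KCNN3, a size that 6.26% of all such exons reach. KCNMB4, KCNJ3 and KCNJ9 have 3 listed exons, of which exon 3 held most of the reads. In KCNMB4 exon 3 took 69.7% to 79.8% of the reads of that gene, in KCNJ3 exon 3 took 75.4% to 83.8%, and in KCNJ9 exon 3 took 60.4% to 75.2%. In KCNJ6 exon 3 took 42.1% to 53.1% and exon 4 took 34.1% to 47.4%. KCNN3 exon 1 took 77.3% to 88.5%, and its exon 8 had a median of 0 normalized reads, with 2 at most. In the own-spread test the smallest unadjusted p of these 7 genes between heavier and lighter drinkers was 0.0281 for KCNN2 (exon 1, log2 0.45) and 0.0327 for KCNMB2 (exon 4, log2 -0.51), both with an adjusted p of 1 by limma. For VHD against LD the smallest values of all 8 genes were 0.0247 for KCNMA1 (exon 1, log2 -0.32) and 0.0302 for KCNN3 (exon 1, log2 -0.20), again with an adjusted p of 1. For cohort 4 against 7a it was 0.00218 for KCNMA1 exon 23 (log2 0.50), with an adjusted p of 0.939.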

How the data were processed

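Gene values were deposited as a signal, the reads of each gene multiplied by 1 upper-quartile factor per library by the authors, per the file headers. Exon values were deposited as a score, scaled in the same way and given by the authors as whole numbers. CASAVA, FastQC, STAR 2.3.0e and edgeR are named, without order, in the submitters' processing notes, and the genome build is not given in the sources used here. Of 30 columns per table, 2 were not used. In each library, 100% of gene values were whole multiples of 1 step within 0.02, so reads were recovered for edgeR 4.0.16 and DESeq2 1.42.0.

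The 13022 genes that reached 10 in 5 or more libraries were tested on log2(value + 1) with limma 3.58.1 in R 4.3.3, with a trend, two-sided, adjusted by Benjamini-Hochberg over all genes at 0.05. Exon use was tested with diffSplice in genes of at least 3 such exons. Correlations used 100000 permutations, two-sided, adjusted over 28 pairs of members (9 members were planned) and 96 pairs with marker scores. Scores average log2 values centred on 28 libraries. Exon gaps were described in exons with a mean of at least 20 and at least 5 libraries on each side.

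All 8 members are named whatever their p, with the 3 most similar genes of each, from each partner list any gene past the threshold or else up to 2 of smallest p, and for KCNMA1 the exons of low or most variable use. Family genes outside the members and the ranges of exons 4, 9 and 19 were added after values were seen. The members and lists were chosen with earlier results of these data known. The pipeline was tested on simulated data.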

Additional observations from a re-analysis of the deposited data

Results flagged for a closer look

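Each member was examined in each category and cohort for a single animal far from the rest of its group, 64 groups in all, of which chance flags about 1 in 20. In 4 groups an animal stood out. HD replicate 5 had 399 normalized reads of KCNN2, against 107 to 189 in the other HD animals, and the same animal stood out in cohort 7a, where the others had 72.8 to 189. LD replicate 9 had 170 normalized reads of KCNN2 in cohort 7b, against 107 to 122 in the others. LD replicate 8 had 213 normalized reads of KCNJ6, against 410 to 569 in the other LD animals.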

How the results depend on the processing

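No member was called under any alternative. Gene counts of 0 became, with DESeq2, 1 for heavier against lighter drinkers, 4 for VHD against LD, 36 over categories, 24 over cohorts and 12 for cohort 4 against 7a, and with 4 marker scores as covariates 68 over cohorts and 149 for cohort 4 against 7a. Leaving out 1 library gave 0 to 1 for VHD against LD (1 without VHD replicate 6), 0 to 1 over categories (1 without HD replicate 5 and 1 without VHD replicate 6), 0 to 40 over cohorts and 0 to 11 for cohort 4 against 7a (both highest without LD replicate 2). For exon use, in the order heavier against lighter drinkers, VHD against LD and cohort 4 against 7a, the counts of 9, 17 and 12 became 103, 106 and 149 with the Simes test, 4, 8 and 7 with a pseudocount of 8 and 0, 0 and 0 with an own spread per exon, a test chosen after seeing the data. A filter of 50 gave 6 for VHD against LD and 6 for cohort 4 against 7a, and leaving out the 3 libraries of fewest reads gave 14 for heavier against lighter drinkers. Leaving out 1 library gave 6 to 16 (lowest without BD replicate 4, highest without HD replicate 5 and also without VHD replicate 6), 10 to 22 (HD replicate 4, VHD replicate 6) and 6 to 22 (LD replicate 7, LD replicate 3).

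Heavier minus lighter drinkers, log2 differences turned below 0 without a cohort term for KCNMA1 (-0.044), KCNMB2 (-0.073), KCNN2 (-0.047), KCNJ3 (-0.089), KCNJ6 (-0.020) and KCNJ9 (-0.14), and with age in place of cohort for KCNMA1 (-0.014), KCNMB2 (-0.023), KCNJ3 (-0.093) and KCNJ9 (-0.19). They did so with marker covariates for KCNMB2 (-0.0083), KCNN2 (-0.10) and KCNJ9 (-0.21), in cohort 7a alone for KCNN3 (-0.16) and KCNJ6 (-0.0085), and without the 3 libraries of fewest reads for KCNN3 (-0.043). VHD minus LD, the sign turned with marker covariates for KCNMB4 (-0.0029), KCNN3 (0.040) and KCNJ6 (0.041), in cohort 7a alone for KCNN3 (0.0029) and KCNJ9 (0.049), for KCNJ3 without a cohort term (-0.043) or with age (-0.064), and for KCNJ9 without the 3 libraries (0.018). Leaving out 1 library turned heavier minus lighter for KCNN3 (-0.043 to 0.11) and KCNJ9 (-0.067 to 0.20), and VHD minus LD for KCNMA1 (-0.35 to 0.039), KCNN2 (-0.42 to 0.083), KCNJ6 (-0.21 to 0.10) and KCNJ9 (-0.27 to 0.041). The relation of KCNJ6 with the glutamatergic score lost its call with a pseudocount of 8 (r = 0.39) and on values centred on cohort means (0.33). The cause was not tested for any of these. No paired analysis was possible because each animal gave 1 library and belonged to 1 drinking category.

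The designs limit what can be read. Cohort and drinking overlap in part, 1 heavier animal stands for cohort 4 and 1 for cohort 7b, and the shallowest library spreads 294 reads of KCNMA1 over 27 exons.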
